A study of Mus musculus with 16 samples.

Results

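Gene expression was compared between follicular B cells, which circulate between the follicles of lymphoid organs, whose transgenic receptor had no antigen to bind, and follicular B cells of wild-type mice. The comparison uses 4 of the series' 8 samples and 8 of its 16 arrays, chosen by sample title. The Auto.Neg group (n = 2) came from ATAμκTg mice, which carry a receptor with specificity for the thymocyte antigen Thy-1 (VH3609μ heavy and Vk21-5κ light chain transgenes), on a Thy-1 knockout background. The WT group (n = 2) was wild type, with neither transgenes nor the knockout. The Auto.Pos samples (n = 2; AGcAμκTg mice, an anti-goblet-cell receptor with the same VH3609μ heavy chain and a Vk19-17κ light chain, spelled Vkappa17-17kappa in another field of the labels) are shown beside them. So are the Non-edited and Edited samples (n = 1 each), from Thy-1 knockout mice with the VH3609t and Vk21-5Tg genes both at +/-. All mice were C.B17. Each sample was hybridised on 2 dual-colour Agilent arrays with swapped dyes, against RNA pooled from 6 cell lines, and its value is the mean of both. The sources used here do not give age, sorting gates, transgene promoters or the number of mice behind a sample. The p-values therefore reflect only how far these samples spread, which may be technical.

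A B cell normally carries 1 kind of receptor, built from a heavy and a light chain whose variable segments were joined during development. A rearranged transgene expressed early stops further joining of the cell's own segments, a process called allelic exclusion, so most B cells of such a mouse share a receptor. Thy-1 is a GPI-anchored protein on thymocytes and T cells, and without it anti-Thy-1 B cells mature unexposed to their antigen. Auto.Neg and WT differ in the heavy chain transgene, the light chain transgene and the knockout at once, and the parts of these in any difference cannot be told apart.

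Levels are given as the log2 ratio of a sample to the reference, and differences as Auto.Neg minus WT in the same unit, except where called a fold. The scanner software marked 64.7% to 81.9% of probes as well above background in the sample's channel on the 8 arrays. The highest share was on the Cy3 array of WT sample 2. Its median sample signal was 734.7, against 95.1 to 185.8 on the rest of these arrays. The number of samples limits the precision. Across genes, which are not independent replicates, the Auto.Neg samples correlated at 0.903 and the WT samples at 0.923, while pairs across the groups correlated at 0.877 to 0.925. Auto.Neg sample 1 correlated at 0.976 with Non-edited, scanned on the same day, and Auto.Neg sample 2 at 0.978 with Auto.Pos sample 1 from the same slide. No slide and no scan day held both groups, so slide and day cannot be separated from the groups directly. Each group held 1 sample of each scanner protocol, and differences within the newer protocol (Auto.Neg sample 1 minus WT sample 2) and the older protocol (Auto.Neg sample 2 minus WT sample 1) are given where they matter. Xist read between -0.58 and 0.16 and the Y-linked Eif2s3y between 5.96 and 7.26 in the 4 samples, so all 4 showed low Xist and high Eif2s3y. Xist read 9.12 to 10.12 in Auto.Pos sample 2, Non-edited and Edited, with Eif2s3y at -0.10 to 0.15, and 0.02 in Auto.Pos sample 1 with Eif2s3y at 0.89. The Y-linked Ddx3y read 1.36 to 2.34 in the 4 compared samples and 2.69 in Auto.Pos sample 1, but -4.28 to -3.67 in the remaining 3. Low Xist with high Ddx3y thus grouped Auto.Pos sample 1 with the compared samples, although its Eif2s3y was low. The part of this pattern in values of the other samples set beside them was not tested.

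limma called 0 of 20469 genes at an adjusted p under 0.05 (0% called; lowest adjusted p = 0.146), while 940 genes (4.59%) had an unadjusted p under 0.05, 574 higher (2.8%) and 366 lower (1.79%) in Auto.Neg. With p-values from the Cy5 arrays alone limma called 60 genes, of which 45 were immunoglobulin units, 15 were transcripts without a symbol and 0 were other named genes. With scan day as a random block (estimated correlation 0.918) it called 458, of which 57 were immunoglobulin units and 270 other named genes. The other fits to the scanner values called 0, and 50 genes were called in both of these. Since no scan day held both groups, the scan day fit joined them only through other samples. It put 5404 genes at an unadjusted limma p under 0.05, and gave Ddx3y -4.895 where the main fit gave 0.09. Its adjusted p-values are therefore given as a description only. To describe the data, 199 genes (0.972%) were set apart that differed at least 2-fold in all 4 pairs of an Auto.Neg with a WT sample at an unadjusted p under 0.05. Of the 93 higher ones (0.454%) 51 were named genes that do not encode immunoglobulin, 37 were transcripts without a symbol and 5 were immunoglobulin units. Of the 106 lower ones (0.518%) the numbers were 15, 35 and 56. Of all 20469 genes 11788 read higher and 8681 lower at any size of difference, and the median difference was 0.04. Counts of list members higher or lower are to be read beside these numbers.

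Outside immunoglobulin, Auto.Neg cells read 2.73 higher for the adhesion gene Dscam and 1.89 higher for the choline kinase gene Chka. They read lower for the acyltransferase genes Gpat3 (-2.19) and Gpat2 (-1.66), for Clec7a (-2.00) and for Usp2 next to Thy1 (-2.95). None passed the adjusted threshold (lowest limma adjusted p = 0.257 among named genes outside immunoglobulin). With scan day as a random block the limma adjusted p was 0.0143 for Chka and Usp2, 0.0161 for Dscam, 0.0238 for Clec7a and 0.044 for Gpat3, while Gpat2 did not pass. Sdc1, Pls1, Rcn3 and Lef1 also passed there, with adjusted p of 0.016 to 0.044. As no scan day held both groups, passing this fit is not counted as support for any of these genes. Only 3 genes of the 20469 placed both Auto.Neg samples at least 2-fold beyond all 6 other samples of the series, namely Dscam, Lrfn5 and Gpat2. Lrfn5 was singled out after its values were seen.

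Dscam, a neuronal adhesion molecule of the immunoglobulin superfamily, read 2.43 and 3.29 in Auto.Neg against 0.18 and 0.08 in WT. It read 1.38 and 0.66 in Auto.Pos, 0.25 in Non-edited and 0.05 in Edited. Both Auto.Neg samples stood above every other, including the other Thy-1 knockout samples. The difference was 2.73 (6.62-fold, SE 0.392, limma adjusted p = 0.281), with 2.35 in the newer and 3.11 in the older protocol. The probe was well above background on 4 of 4 Auto.Neg and 3 of 4 WT arrays. The other kept probe differed by -0.03 and was well above background on 2 of 4 arrays of each group. Lrfn5, a synaptic adhesion molecule, read 2.29 and 1.24 in Auto.Neg, and the other 6 samples lay between -0.01 and 0.19. Gpat2, a glycerol-3-phosphate acyltransferase of the mitochondrial membrane, showed the opposite picture. It read 0.06 and 0.63 in Auto.Neg against 1.95 and 2.05 in WT, and between 1.96 and 2.78 in the other transgenic samples. Its difference was -1.66 (SE 0.328, limma adjusted p = 0.586), on the only kept probe.

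**Figure D1:**
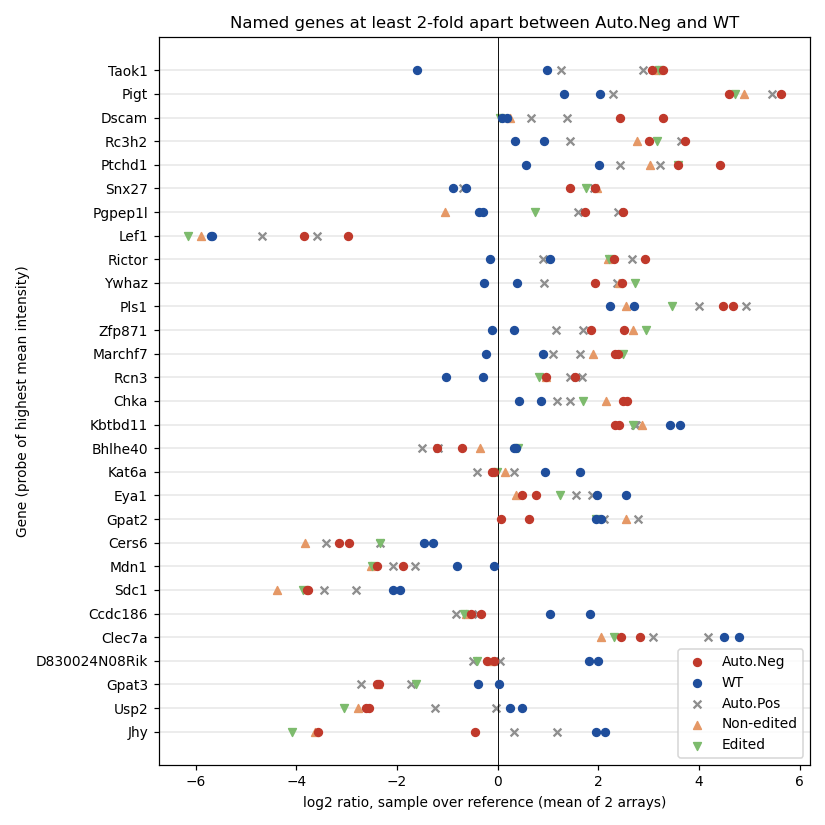
log2 ratio over the reference (horizontal axis) of 29 named genes outside immunoglobulin with large differences among those at least 2-fold apart; each point is 1 sample, the mean of its 2 arrays. The 15 upper genes read higher and the 14 lower genes read lower in both Auto.Neg samples (red) than in both WT samples (blue), and the groups do not overlap because the genes were chosen that way. Grey, orange and green marks are the other samples.

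Of the 51 higher genes 34 had another kept probe, and in 13 of the 34 another probe reached at least 50% of the printed difference. Lef1, Rcn3 and Chka were among these. Lef1, a DNA-binding partner of beta-catenin found in T cells and early B cells, read -3.84 and -2.97 in Auto.Neg against -5.70 and -5.66 in WT. The reference was far above all samples, Auto.Pos read -3.59 and -4.69, and Non-edited (-5.90) and Edited (-6.14) lay with WT. The difference of 2.28 (SE 0.472, limma adjusted p = 0.607) was matched by 1.72 on another probe. T cell markers as a list had a median of 0.09, 14 of 22 measured members lay higher, and Lck, the T cell receptor kinase, differed by -0.89. The list's median was -0.31 in the newer and 0.49 in the older protocol, and it changed sign in the scanner software's own log ratio. Its median level was -2.97 and -2.81 in Auto.Neg and -3.44 and -2.44 in WT, and the T cell receptor subunit gene Cd3e differed by 0.11. Their part in the Lef1 difference was not tested.

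Rcn3, a calcium-binding protein of the secretory pathway, read 0.97 and 1.53 in Auto.Neg against -0.29 and -1.03 in WT, a difference of 1.90 with 1.78 on another probe. Chka, the kinase that commits choline to phosphatidylcholine synthesis, read 2.50 and 2.58 in Auto.Neg against 0.86 and 0.42 in WT, a difference of 1.89 (SE 0.237, limma adjusted p = 0.257). Its other 3 probes differed by 1.36, 1.09 and -0.03, so the difference did not hold on 1 of them. Pls1, an actin-bundling plastin, had a single probe, which read 4.48 and 4.68 in Auto.Neg against 2.23 and 2.72 in WT. For Rcn3 and Chka both WT samples were the lowest of all 8, whereas for Pls1 Non-edited, at 2.54, lay between them. Ptchd1, a patched-domain membrane protein, and Pgpep1l, related to pyroglutamyl peptidases, also had 1 probe each and differed by 2.72 and 2.44.

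Several of the largest differences in the higher group rested on 1 probe among several. Taok1, a kinase upstream of stress-activated MAP kinases, read 3.28 and 3.07 in Auto.Neg but 0.99 and -1.60 in WT. Its difference of 3.48 (SE 0.972) stood beside 0.03 and 0.96 on its other probes and beside an SD of 1.83 between the WT samples. Pigt, a subunit of the enzyme that attaches GPI anchors, differed by 3.44 and by 0.15 on its other probe. Its printed probe lies on chromosome 17 in the files and the gene on chromosome 2 in RefSeq's table, whereas the chromosomes matched for the other 65 named genes, so the name of this probe is uncertain. A single probe also carried the difference of Snx27, a sorting nexin of endosomal recycling (2.45, and -0.55 to 0.00 on 4 others). So it did for Rictor, the defining subunit of mTOR complex 2 (2.18, and 0.00 to 0.47 on 4 others), and for the 14-3-3 gene Ywhaz (2.15, and 0.05). Rc3h2, the RNA-binding protein Roquin-2, differed by 2.72 with 0.61 and 0.95 elsewhere. Zfp871, a zinc finger gene (2.07, with -0.26 and 0.60), and the ubiquitin ligase gene Marchf7 (2.02, with 0.59 and 0.13) followed the same pattern. For 21 of the 34 higher genes with another kept probe no other probe reached 50% of the printed difference.

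**Figure D2:**
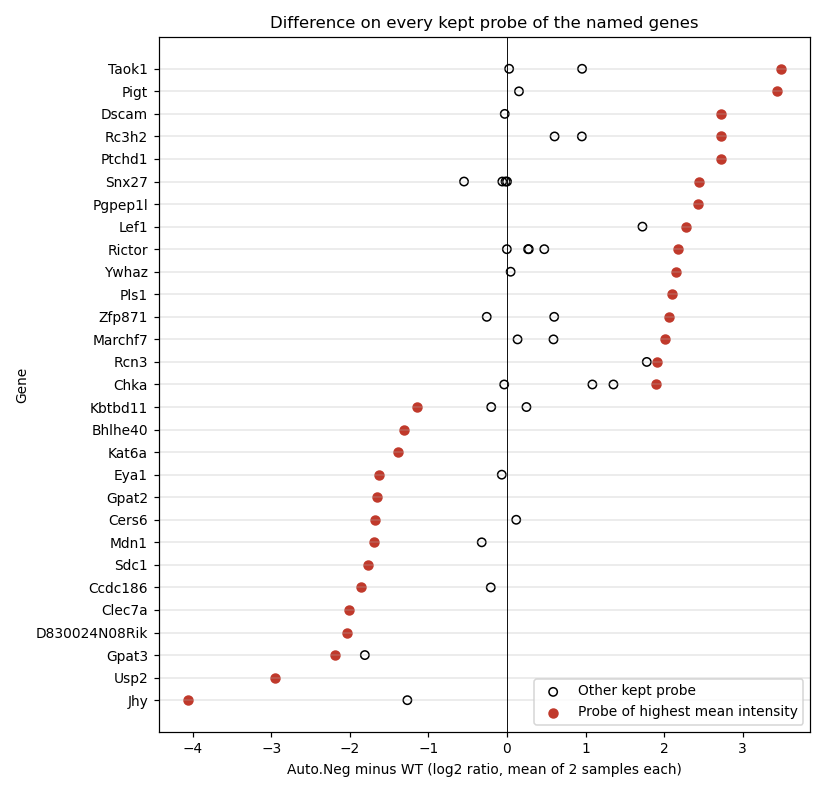
Difference of Auto.Neg and WT means (log2 ratio, n = 2 samples each) on each kept probe of the same 29 genes. Filled points are the probe of highest mean intensity, open points the other probes; most open points of the higher genes lie near 0, while those of Lef1, Rcn3 and Gpat3 lie close to the filled point.

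The probes of the higher set had a median GC content of 38.3%, against 43.3% over all genes tested and 45% in the lower set; its part in these differences was not tested. Of the 51 higher genes 34 read above both WT samples in all 6 samples that are not WT, against 1190 of all 20469 genes. This follows in part from choosing genes by their WT values. By distance, 41 of the 51 lay nearer to the Auto.Neg mean than to the WT mean in Non-edited and 43 in Edited, against 52.3% and 50.2% of all genes. In the Auto.Pos samples the numbers were 44 and 26, against 65.4% and 51.6%. The 51 genes were chosen by the values that set both means, so the shares of all genes are not a direct baseline. Non-edited and Edited were scanned on the same day as Auto.Neg sample 1. A slide and scan day also joined Auto.Pos sample 1 to Auto.Neg sample 2. WT sample 2 shared its scan day with Auto.Pos sample 2. The part of slide and scan day in these counts was not tested.

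Among the 15 lower genes, Gpat3, the glycerol-3-phosphate acyltransferase of the endoplasmic reticulum, held on both of its probes. It read -2.36 and -2.40 in Auto.Neg against -0.40 and 0.02 in WT, a difference of -2.19 (4.55-fold lower, SE 0.383, limma adjusted p = 0.43), with -1.81 on the other probe. Auto.Pos, Non-edited and Edited lay between -2.72 and -1.63, so WT stood alone. Cers6, a ceramide synthase, read -3.15 and -2.96 in Auto.Neg against -1.46 and -1.29 in WT, but differed by 0.12 on its other probe. Clec7a, which encodes the beta-glucan receptor Dectin-1 of myeloid cells, read 2.45 and 2.83 in Auto.Neg against 4.50 and 4.79 in WT. It read 4.175 and 3.088 in Auto.Pos, 2.06 in Non-edited and 2.315 in Edited. Its difference of -2.00 (SE 0.41) stood beside lower readings of 19 of 23 macrophage and monocyte markers. Their median level was 1.33 and 2.34 in Auto.Neg and 2.50 and 2.77 in WT. The list's median difference was -0.46, with -0.60 in the newer and -0.02 in the older protocol and 0.04 without Auto.Neg sample 1, -0.98 without Auto.Neg sample 2 and -0.10 without WT sample 1. Its members with the largest differences were Lyz2, a lysozyme gene (-1.24; -0.24 on another probe), Spic, a transcription factor gene of red pulp macrophages, which read higher (1.16; 0.61 on another probe), and Adgre1, the F4/80 antigen (-1.14). In bulk samples fewer cells of a type and less RNA per cell cannot be told apart, and the part of these cells in the Clec7a difference was not tested.

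Sdc1, the plasma cell antigen CD138, read -3.79 and -3.76 in Auto.Neg against -1.93 and -2.08 in WT, and between -4.37 and -2.82 in the other 4 samples. The difference was -1.77 (SE 0.27, limma adjusted p = 0.308) on its only kept probe. Of the 19 germinal centre and plasma cell genes 10 lay higher. Eya1, a phosphatase and transcriptional coactivator, differed by -1.63 (-0.07 on another probe), and Mdn1, an ATPase of ribosome assembly, by -1.69 (-0.32). Ccdc186, a coiled-coil protein of vesicle traffic, differed by -1.86 (-0.21). Kbtbd11, a kelch-domain gene, differed by -1.14, with 0.25 and -0.20 on its other probes. Further single-probe genes were D830024N08Rik (-2.04), the histone acetyltransferase gene Kat6a (-1.38) and the transcription factor gene Bhlhe40 (-1.31). In all 3 both Auto.Neg samples lay below both WT samples by the choice of genes, and Edited lay with WT for Bhlhe40 (0.41).

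Genes around Thy1 were described because the knockout is part of the contrast. Thy1 itself had 2 kept probes on chromosome 9, and the brighter one read -4.00 and -4.19 in Auto.Neg against -4.31 and -4.54 in WT. The other probe read -0.55 and 0.46 in Auto.Neg against -3.62 and -3.07 in WT, thus higher in the knockout, by 3.30. On that probe Non-edited read -0.52 and Edited -1.43, against -2.93 and -3.77 in Auto.Pos. It thus placed all 4 samples labelled as knockout above all 4 others, whereas the brighter probe did not separate them. The deleted part of the gene is not given in the sources used here, so what this probe detects in the knockout is not known. Usp2, a deubiquitinase gene whose probe lies 44.2 kb from that of Thy1 (mm7 chr9:44027086-44027145), read -2.61 and -2.55 in Auto.Neg against 0.48 and 0.25 in WT. Non-edited read -2.77 and Edited -3.06, while Auto.Pos, which is not labelled as a knockout, read -0.04 and -1.25. All 4 knockout samples thus lay below all 4 others. The difference was -2.95 (7.71-fold lower, SE 0.424, limma adjusted p = 0.281), and -2.86 and -3.04 in the newer and older protocol.

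Jhy, a gene of ciliated cells whose probe lies on the other side of Thy1 (distance -3157 kb; chr9:40825908-40825967), read -3.58 and -0.45 in Auto.Neg against 1.95 and 2.13 in WT. Non-edited read -3.64, Edited -4.08 and Auto.Pos 0.32 and 1.18. The knockout samples again lay below the others, but the SD between the Auto.Neg samples was 2.21, and the difference of -4.05 had an SE of 1.03 (limma adjusted p = 0.782; -1.27 on another probe). In the opposite direction, D50494 (an RCK mRNA in the files) read 2.49 and 1.25 in Auto.Neg against 0.20 and 0.36 in WT. Its probe lies 588.8 kb from that of Thy1. The probe of Ddx6, at 588.2 kb, differed by -0.22 and did not separate the knockout samples. Tmprss13, a membrane serine protease, read 1.80 and 1.03 against 0.24 and 0.36. D50494 and Tmprss13 were higher in all 4 knockout samples than in all others. Il10ra, the interleukin-10 receptor, differed by -0.61 and also separated the knockout samples. Il18, the inflammasome cytokine, differed by -1.04, and Nectin1, an adhesion molecule, by 1.64, and neither separated the knockout samples.

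Of 267 genes within 10 Mb of Thy1, 5 were higher and 6 lower at an unadjusted p under 0.05, against 2.8% and 1.79% of all genes, and 0 were called. Their median difference was 0.02, against 0.04 over all genes. The 4 knockout samples lay apart from the 4 others, in either direction, for 12 of these 267 genes (4.49%) and for 6 of the 77 within 2 Mb (7.79%). The share was 2.1% over the other 856 genes of the chromosome and 2.07% over all genes. The scan day of 3 of the 4 knockout samples was the same, and its part in these counts was not tested.

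**Figure D3:**
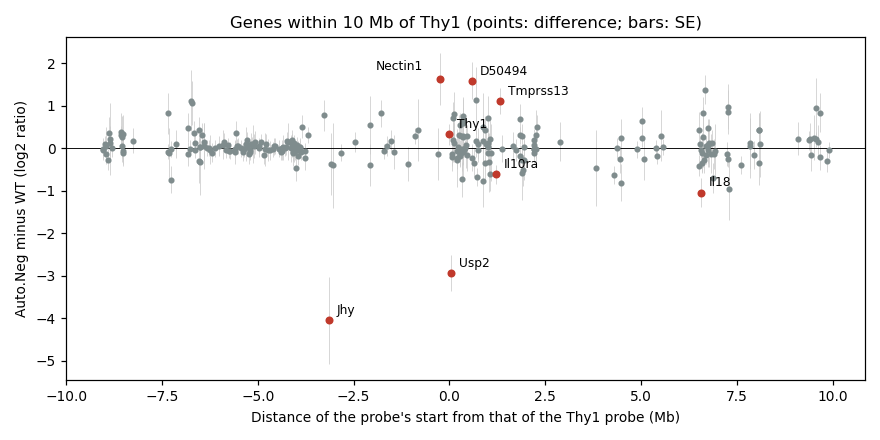
Difference of Auto.Neg and WT (vertical axis, log2 ratio; bars are SE) of 267 genes against the distance of their probe from the Thy1 probe (horizontal axis, Mb). Jhy and Usp2 stand at -4.05 and -2.95, and all other points lie between -1.04 and 1.64.

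The genes of B cell identity were measured to check the label. Among 12 B cell defining markers Ms4a1 (CD20) read 8.60 and 8.96 in Auto.Neg against 9.57 and 9.41 in WT, a difference of -0.71 (SE 0.237). Cd79b, a signalling chain of the receptor, differed by 0.21, and Pax5, the B lineage transcription factor, by 0.97. Another probe of Ms4a1 differed by -0.38 and another of Pax5 by 0.615, and the groups overlapped on both. Fcer2a (CD23), which marks follicular B cells, differed by -0.30 (SE 0.506), and WT sample 2 (7.57) lay between the Auto.Neg samples. The list's median level was 5.07 and 4.30 in Auto.Neg and 5.29 and 4.53 in WT. Cd79a read 5.45 and 3.21 in Auto.Neg against 3.85 and 4.12 in WT, and its sign changed with the scaling.

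Nod1, which the series title names, read lower in both Auto.Neg samples. This gene, the cytosolic receptor for a peptidoglycan fragment, had levels of 2.89 and 3.23 in the Auto.Neg samples against 4.04 and 3.66 in WT. The groups did not overlap, and the difference was -0.78 (1.72-fold lower, SE 0.263, unadjusted p = 0.0299, limma adjusted p = 1.00), with -0.60 to -1.31 over the alternatives. It passed in 1 of them, with scan day as a random block (limma adjusted p = 0.0498), although no scan day held both groups. Non-edited, at 1.60, lay below Auto.Neg, Edited read 4.07, and Auto.Pos lay above all with 5.45 and 5.08. Nod2, the related muramyl dipeptide receptor, read 0.95 and 1.03 in Auto.Neg against 1.36 and 1.59 in WT (difference -0.48, SE 0.32; 0.12 with scan day as a random block). Ripk2, the kinase of both, differed by -0.12 (SE 0.403), with 0.10 in the scanner software's log ratio and 0.49 with scan day as a random block. Slc15a4, an endolysosomal transporter of such peptides, differed by -0.77, Il1b by -0.72 and Nlrp3 by -0.45. Of 23 measured NOD and inflammasome genes 18 lay lower and 5 higher, with a median of -0.13. The groups did not overlap for 9 of the 23, all lower, where 9.57% of all genes were lower and 15.4% higher without overlap. None of the 23 was called.

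Marginal zone B cell genes lay lower for 13 of 16 measured members, with a median of -0.43 (-0.33 in the newer and -0.59 in the older protocol; -0.25 without WT sample 1) and 0 called. Tm6sf1, a multispanning membrane protein, differed by -1.66 (-1.34 on another probe). In Auto.Neg, S1pr3, which binds sphingosine-1-phosphate, read 1.03 and 1.43, and in WT 2.90 and 2.15 (difference -1.30; -0.11 on another probe). Cd9, a tetraspanin, read 3.57 and 2.99 in Auto.Neg against 3.83 and 4.02 in WT. Its difference was -0.65 (-0.27 on another probe; 0.19 in the scanner software's log ratio). Cr2, the complement receptor CD21, differed by -0.41 and Cd1d1 by -0.50. Against the list, Pik3r4, a subunit of the class III PI 3-kinase, differed by 1.08 and Ebi3 by 0.60. Spread among members was thus wide, and the groups did not overlap for 6 lower and 2 higher members of the 16, against 9.57% and 15.4% of all genes. The median level of the list was 1.32 in Non-edited and 1.97 in Edited, above all 4 samples compared.

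Genes of MHC antigen presentation lay lower for 22 of 29 members, with a median of -0.34. The median was -0.07 without Auto.Neg sample 1 and -0.11 without WT sample 2, and the median level of Auto.Neg sample 1 (3.64) lay between those of the WT samples. Tapbp, the tapasin of peptide loading, read 3.33 and 3.12 in Auto.Neg against 3.92 and 3.89 in WT (difference -0.69; 0.56 on another probe). H2-DMa, a chaperone of class II loading, differed by 0.36. Of 27 cholesterol and fatty acid synthesis genes 16 lay lower (median -0.13), and the groups did not overlap for 8, all lower (9.57% of all genes lower, 15.4% higher). The median was 0.07 on the Cy5 arrays alone. Scd2, a stearoyl-CoA desaturase, differed by -1.31 and Sqle, squalene epoxidase, by -0.86. Over all genes 11788 of 20469 lay higher. Heat shock chaperones lay higher for 15 of 21 (median 0.16, but -0.12 in the newer protocol, and 0.05 without Auto.Neg sample 2) and immediate early genes for 15 of 22 (median 0.17). The latter median became -0.06 without Auto.Neg sample 2. Among these genes Junb differed by 0.95 and Jund by 0.88, with WT sample 2 (1.14 and 1.26) well below WT sample 1 (2.58 and 2.35).

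Genes that restrain or transmit receptor signals did not move one way. Cd72, an inhibitory receptor, differed by -1.11, and the receptor phosphatase Ptprj by -1.05 (-0.51). Over 24 such inhibitors the median was 0.03. Traf3, a brake on the noncanonical NF-kB pathway, read -0.21 and -0.12 in Auto.Neg against 0.61 and 1.44 in WT, and Nfkbia, the feedback inhibitor of the canonical pathway, read 4.12 and 4.07 against 3.39 and 3.49. Over 23 NF-kB genes the median was 0.12. Cxcr4, a chemokine receptor for homing, differed by 1.20 (0.76 on another probe) and S1pr1, the receptor for egress, by -1.15. Spib, a B cell transcription factor, differed by -1.32. Il9r, a cytokine receptor, differed by 1.47, and Tnfrsf13b, the BAFF and APRIL receptor TACI, by -0.96 (-1.05 on another probe). Medians of 20 of the 33 lists changed sign under at least 1 scaling, these inhibitor, NF-kB, homing and cytokine receptor lists among them.

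Some differences came from a single sample or array. Mpo, the myeloperoxidase of neutrophil precursors, read 4.16 in Auto.Neg sample 1 and between -0.58 and 1.04 in the other 7 samples. Cd83, an activation marker, read 4.06 in Auto.Neg sample 1 and between 7.71 and 8.68 elsewhere; without that sample its difference of -2.09 became 0.05. The difference was -4.22 on the arrays with the sample in Cy5 and 0.04 on those with it in Cy3, so the low value was not seen in both dye orientations. Ly6a read 0.75 in WT sample 1 and 6.17 in WT sample 2, and its difference of 1.08 had an SE of 1.79. The neutrophil list had a median level of 1.71 in Auto.Neg sample 1 and 0.43 to 1.12 in the other 3 samples compared.

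**Figure D4:**
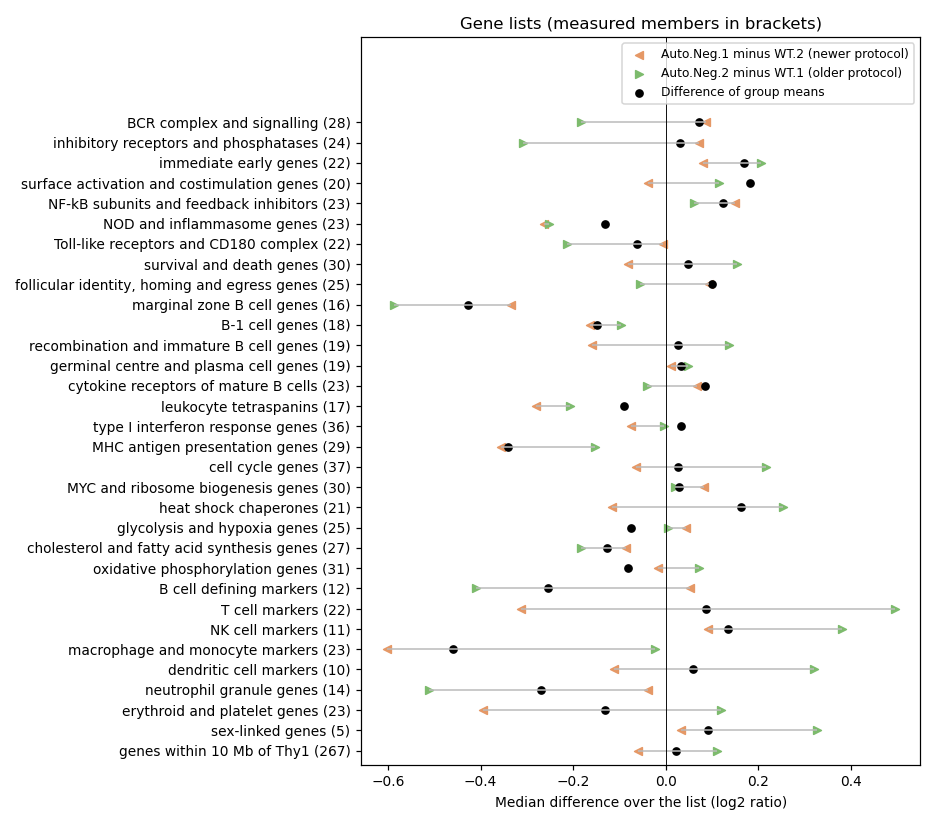
Median difference of Auto.Neg and WT (horizontal axis, log2 ratio) over each gene list: difference of group means (black) and the single differences within the newer (left-pointing) and older (right-pointing) scanner protocol. The marginal zone, NOD and MHC lists lie below 0 in both. So do the macrophage, neutrophil, tetraspanin, B-1, cholesterol, interferon and Toll-like receptor lists. T cell, dendritic cell and erythroid markers are among those on both sides of 0.

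Immunoglobulin units made up 61 of the 199 genes at least 2-fold apart, although only 106 of the 20469 genes are such units. Probe sequences are shown for 3 units that read higher and 3 heavy chain units that read lower, because they carry this difference and show what the units share. They are given 5′ to 3′ as in the files (build mm7). Capitals mark a run of 13 bases common to the 2 kappa probes, and another of 13 bases common to the 3 lower heavy chain probes. LOC619916 (heavy, higher) lies at chr12:113252694-113252753 on the minus strand, LOC674029 (kappa, higher) at chr6:70606692-70606751 and ENSMUST00000089814 (kappa, higher) at chr6:70591160-70591219, both on the plus strand. AY182513 lies at chr12:111581219-111581278, LOC435333 at chr12:113737818-113737877 and AY172876 at chr12:112417642-112417701, all on the minus strand (heavy, lower).
LOC619916: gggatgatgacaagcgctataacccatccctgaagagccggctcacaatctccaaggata
LOC674029: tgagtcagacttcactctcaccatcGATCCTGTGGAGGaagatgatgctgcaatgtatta
ENSMUST00000089814: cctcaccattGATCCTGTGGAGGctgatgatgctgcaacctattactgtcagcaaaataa
AY182513: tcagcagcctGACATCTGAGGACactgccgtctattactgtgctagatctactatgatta
LOC435333: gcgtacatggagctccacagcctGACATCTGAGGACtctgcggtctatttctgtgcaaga
AY172876: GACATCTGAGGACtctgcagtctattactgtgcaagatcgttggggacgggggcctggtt

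Of the higher kappa units, LOC674029 and ENSMUST00000089814 are described in the files as similar to a kappa V-III chain. ENSMUST00000089814 read 6.69 and 7.24 in Auto.Neg against 4.14 and 3.67 in WT, a difference of 3.06 (SE 0.298, limma adjusted p = 0.245). Non-edited read 6.95 and Auto.Pos, labelled with another light chain transgene, -0.50 and -0.24. LOC674029 read 5.12 and 5.92 in Auto.Neg against 2.77 and 2.01 in WT, and 0.02 and 0.30 in Auto.Pos. BC080787 read 6.75 and 6.96 against 4.55 and 4.05. These 3 kappa units were thus also high in Non-edited and low in Auto.Pos.

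LOC619916, described as similar to a heavy chain V region, read 5.79 and 5.54 in Auto.Neg against 2.22 and 1.80 in WT (difference 3.65, 12.6-fold, SE 0.487, limma adjusted p = 0.262). It read between 4.79 and 6.16 in the other 4 samples, all of which carry a VH3609 heavy chain. Its second probe went the other way, with -0.55 and -1.45 in Auto.Neg and 2.54 and 2.20 in WT (-3.37). On that probe Auto.Pos read -1.31 and -0.51, Non-edited -1.53 and Edited 1.085. It lies at chr12:113245473-113245532, apart from the first, and whether both detect the same segment was not tested. The mean over both probes differed by 0.14, so the direction under this name rests on the choice of probe.

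Most immunoglobulin units read lower. Of 106 units 92 lay lower and 14 higher, with a median of -1.98, and the groups did not overlap for 82 lower and 10 higher units, against 9.57% and 15.4% of all genes. By chain, 46 of 54 heavy units and 45 of 51 kappa units lay lower, with medians of -2.27 and -1.22. Within the protocols the median over all units was -1.38 (newer) and -2.18 (older). The lowest p of the whole table belonged to the kappa unit LOC675694, which read 0.51 and 0.76 in Auto.Neg against 4.91 and 4.60 in WT (difference -4.12, SE 0.223, limma adjusted p = 0.146). AY182513 read -1.14 and -1.95 against 3.34 and 2.47 (difference -4.44, 21.8-fold lower), LOC435333 differed by -4.25 and AY172876 by -4.16. Igkv6-14, described as a Vk19 light chain, read 0.94 and 0.96 in Auto.Neg against 5.42 and 4.88 in WT (difference -4.20). In each of these, both Auto.Neg samples lay over 3 log2 units below both WT samples.

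The units are not independent, since 41 of the 106 printed probes share a run of 20 bases with the probe of another unit, and 33 of the 61 at least 2-fold apart do. The 25 lower kappa units at least 2-fold apart differed by -4.20 to -1.89 and had median levels of 4.12 in WT and 4.02 in Edited against 0.98 in Auto.Neg and 1.54 in Non-edited. The 31 lower heavy units differed by -4.44 to -1.77 and had median levels of 2.51, 1.16, -0.30 and -0.82 in this order. Edited cells therefore lay near WT for kappa units and between the groups for heavy units, and Non-edited cells lay near Auto.Neg for both. Over the 56 lower units together, 54 were nearer to Auto.Neg than to WT in Non-edited, 22 in Edited, and 53 in each of the Auto.Pos samples 1 and 2. The shares over all genes were 52.3%, 50.2%, 65.4% and 51.6% in this order. The 56 units were chosen by their Auto.Neg and WT values, so these shares are not a direct baseline. Low levels of these units were thus also seen in Auto.Pos, which has another light chain transgene and is not labelled as a knockout. With 1 sample each, Non-edited and Edited have no replicate check.

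**Figure D5:**
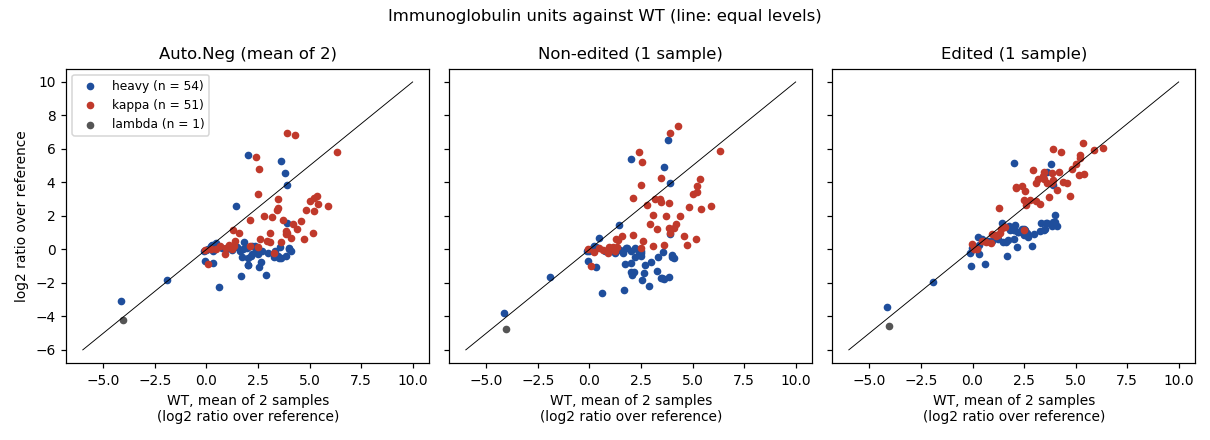
Level of 106 immunoglobulin units in Auto.Neg, Non-edited and Edited cells (vertical axes) against WT (horizontal axis), all as log2 ratio over the reference; each point is a unit, coloured by chain. In Auto.Neg and Non-edited most points lie below the line of equal levels, and in Edited the kappa points lie along it.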

How the data were processed

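Follicular B cell RNA was measured on dual-colour Agilent mouse arrays, 2 dye-swapped arrays per sample. The authors deposited spot intensity values and the scanner software's log10 ratio, made with Agilent Feature Extraction 9.1.1.1, 9.1.3.1 or 9.5.1.1 per the file headers. The authors also deposited a table of log2 ratios with scale, centring and direction unstated (column medians -0.0171 to 0.016). Of its 16 columns 10 matched another array best, including all 8 of these groups, so it served only as an alternative. The first array of each sample carries it in Cy5 and the second in Cy3, and every ratio was turned to sample over reference.

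Mean foreground and median background were corrected with normexp (offset 50) and loess in limma 3.58.1 (R 4.3.3). Control spots had no weight, and outlier spots were left out. The 2 arrays of a sample were averaged; 356 gene values rest on 1 array and 6 genes lack a sample. Probes well above background on both arrays of at least 2 of 8 samples were kept (29640 of 41174), and the probe of highest mean intensity stood for each of 20469 genes. limma was fitted to 8 samples in 5 groups (3 residual degrees of freedom), with Benjamini-Hochberg adjustment over all genes. The fit was tested on simulated data in which genes and samples varied independently. These data had no slide or scan day effects, so the fit was not tested under such effects.

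Named were the 15 largest differences in each direction among symbols outside immunoglobulin at least 2-fold apart in every pair with unadjusted p under 0.05, the 3 largest members of each list, fixed marker genes, and the 4 largest immunoglobulin units each way. A few genes that this rule names are not reported here. List members that are named beyond these were chosen after their values were seen. Members and lists were chosen with earlier results of these data known. Of the probes 22972 were named by accession, 6644 by symbol and 3105 by synonym through RefSeq's table, and 8453 kept the file's name. Deviations of same-numbered Auto.Neg and WT samples correlated at -0.279 and those of the same scanner protocol at 0.279. Alternatives covered background, normalization, filter, dye, blocks, probe choice and each sample left out.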

Additional observations from a re-analysis of the deposited data

How the results depend on the processing

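limma called 0 genes in every alternative fitted to the scanner values except the Cy5 arrays alone (60) and scan day as a random block (458). The deposited table read by its labels called 6963, but its columns do not match their arrays. The count of genes at least 2-fold apart was 199. It was 396 with the scanner software's log ratio and ranged from 373 to 665 with 1 sample left out, where the lone sample is assumed to vary like the others. No pairing of samples by number is stated in the labels. The replicate block gave 0 calls and 194 genes at least 2-fold apart. Its crossed form, the scanner protocol block, gave 0 and 204. Slide as a random block could not be fitted.

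Of the named genes' values 2244 kept direction and side of the threshold, 53 passed it only in an alternative and 48 changed sign; of the list medians 479 stayed within the sample spread and 49 moved. The cause of these changes was not tested. With scan day as a random block the signs changed for Ly6a (-0.219), Hsp90b1 (-0.093), Gzma (-0.238), Cd22 (0.095), Ifi44 (-0.2), H2-T23 (0.141), Vav1 (0.001), Ddx3y (-4.895), Nod2 (0.122), Ripk2 (0.494) and Thy1 (-0.049). With scale normalization they changed for Birc3 (-0.125), Ddx3y (-0.281) and Cd79a (-0.153). With the scanner software's log ratio they changed for Ripk2 (0.101), Cd9 (0.187) and Nxpe2 (0.31). With Cy3 alone they changed for Cd83 (0.044), Eif2s3y (0.263) and Fcer2a (0.201), and with Cy5 alone for Blk (-0.092) and Ddx3y (-0.182). Eif2s3y changed without background correction (0.184) and Rbm3 with the mean over probes (-0.102). With 1 sample left out, the range included the opposite sign for Camp (-2.358 to 0.067), Themis (-0.333 to 2.259), Cd83 (-4.229 to 0.05), Ly6a (-1.627 to 3.787), Pf4 (-2.531 to 1.081), Tbx21 (-2.02 to 0.264), Il7r (-0.151 to 1.291), Top2a (-1.468 to 0.158), Ifi44 (-0.418 to 2.177), Oasl2 (-1.889 to 0.173), Vav1 (-1.362 to 0.033), Blk (-0.142 to 1.47), Cd14 (-1.102 to 0.207), Ddx3y (-0.4 to 0.582), Xcr1 (-0.218 to 0.827), Bst2 (-1.246 to 0.641), Ripk2 (-0.438 to 0.2), Eif2s3y (-0.721 to 0.577), Cd79a (-0.776 to 1.461) and Fcer2a (-0.741 to 0.152).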
